A study of Homo sapiens with 4 samples.

Results

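The FAT and Dachsous cadherins were described in MDA-MB-231, a human breast cancer line that lacks hormone receptors and HER2 amplification (triple negative). The genes were taken by name, as the 6 symbols FAT1, FAT2, FAT3, FAT4, DCHS1 and DCHS2, from 61471 gene names in the count tables, and all 6 were found. RNA selected by its polyA tail was sequenced in 4 libraries, 2 of cells labelled EGFP positive with no increased extravasation and 2 of cells labelled EGFP negative with increased extravasation. Both groups were wild type by label, were transfected with H2B-EGFP, a green fluorescent fusion of histone H2B, and with CMV-RFP, a red fluorescent protein under a viral promoter, and grew in DMEM with serum, penicillin and streptomycin. Extravasation is the exit of tumour cells from a blood vessel. EGFP status and extravasation status changed together and cannot be told apart, and the labels used here give neither the ploidy named in the series title nor whether a group was 1 clone or its libraries separate cultures. The p-values below are set against library-to-library spread alone, and that spread may be technical.

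FAT and Dachsous proteins are the giants of the cadherin superfamily, single-pass membrane proteins whose outer part is a long chain of cadherin repeats. FAT proteins act as receptors and Dachsous proteins as their ligands on the neighbouring cell, and in flies the pair orients cells within a sheet (planar cell polarity) and restrains growth through the Hippo pathway. In mammals FAT4 and DCHS1 keep this pairing, while the cytoplasmic tail of FAT1 is known for its link to actin regulators, and FAT1 is often mutated in carcinomas.

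The family was singled out with results of the EGFP negative to EGFP positive comparison already known, among them a large difference in FAT3. The values of the 6 genes in that comparison are therefore given as a description, with no p-value. Intervals beside them cover counting error, and whether a gene passed in the fit over all genes is given only beside the share of all genes that did.

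RefSeq promoters (GRCh38.p14, 250 bases before to 50 bases after the start) were at hand for 3 of the 6 genes, FAT1, FAT2 and DCHS2. All 3 are shown. They take in FAT1, the most abundant transcript of the family, and FAT2 and DCHS2, which had hardly any counts. Each start printed here is also the outer end of the gene in the count tables, and capitals mark the CG dinucleotides. The FAT1 window is chr4:186723807-186724106, that of FAT2 is chr5:151591282-151591581 and that of DCHS2 is chr4:154491750-154492049, all on the minus strand and written 5′ to 3′.
FAT1: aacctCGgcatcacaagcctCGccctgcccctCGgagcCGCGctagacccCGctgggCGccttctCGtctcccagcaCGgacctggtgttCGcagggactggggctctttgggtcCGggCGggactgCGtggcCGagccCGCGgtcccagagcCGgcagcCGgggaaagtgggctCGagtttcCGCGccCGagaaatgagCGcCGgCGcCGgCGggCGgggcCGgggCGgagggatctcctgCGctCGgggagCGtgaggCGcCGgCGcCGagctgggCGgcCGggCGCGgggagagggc
FAT2: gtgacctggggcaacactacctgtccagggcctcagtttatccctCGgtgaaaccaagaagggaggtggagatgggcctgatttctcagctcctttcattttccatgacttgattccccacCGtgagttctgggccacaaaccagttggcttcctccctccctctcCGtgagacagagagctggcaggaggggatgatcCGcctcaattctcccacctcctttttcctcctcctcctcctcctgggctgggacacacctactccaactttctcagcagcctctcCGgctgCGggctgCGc
DCHS2: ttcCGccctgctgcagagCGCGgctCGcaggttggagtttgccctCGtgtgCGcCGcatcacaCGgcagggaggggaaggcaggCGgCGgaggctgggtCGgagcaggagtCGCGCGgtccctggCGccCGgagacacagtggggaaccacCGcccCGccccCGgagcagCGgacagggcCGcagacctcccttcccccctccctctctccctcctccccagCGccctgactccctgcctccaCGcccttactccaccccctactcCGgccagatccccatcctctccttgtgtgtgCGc
The FAT1 window held 41 CG dinucleotides, more than 93.3% of 35116 RefSeq promoter windows of the same length, whose median was 14. The FAT2 window held 7, more than 36.8% of these windows. The DCHS2 window held 25, more than 68% of them, though DCHS2 had no counts. RefSeq lists another FAT1 start farther upstream, chr4:186726647-186726946, with 40 CG dinucleotides, and counts per gene cannot say which start was used. The hexamer GGAATG or its reverse complement CATTCC, the core bound by TEAD factors, was in none of the 4 windows and in 14% of all windows.

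FAT1 made up most of the family in every library. Per kilobase of exon, as CPM (counts scaled by depth, with TMM-adjusted library totals) divided by the summed exon length, the order was FAT1, FAT4, FAT3, DCHS1 in all 4 libraries. FAT1 was at 66.2 and 71 CPM per kb in EGFP positive libraries 1 and 2 and at 53.1 and 50.9 CPM per kb in EGFP negative libraries 1 and 2. It took 92.1 to 93.5% of the family's summed level per kb, and its mean level over the 4 libraries exceeded that of 92.2% of 11991 tested protein-coding genes. For FAT4, FAT3 and DCHS1 this share was 32.6%, 8.96% and 0.917%. FAT4 followed at 4.22 and 4.55 CPM per kb in EGFP positive and 3.42 and 3.29 CPM per kb in EGFP negative cells. Among the family and the other cadherins of the lists that passed the count filter (14 genes), the level per kb of FAT1 (mean 60.3 CPM per kb over 4 libraries) was second to that of the calsyntenin CLSTN1 (67.1), and FAT4 (3.87) lay next to CELSR1 (4.54). By group this order changed. FAT1 was above CLSTN1 in EGFP positive cells (68.6 and 58.5) and below it in EGFP negative cells (52 and 75.7). FAT4 was above CELSR1 in EGFP positive cells (4.38 and 2.9) and below it in EGFP negative cells (3.36 and 6.17). Neighbours in the order within the family did not overlap in any library except where FAT3 and DCHS1 met in EGFP negative cells. There FAT3 was at 0.197 and 0.158 CPM per kb, with 95% counting intervals of 0.145 to 0.262 and 0.111 to 0.218. DCHS1 was at 0.15 and 0.112 CPM per kb, with intervals of 0.0914 to 0.231 and 0.0611 to 0.187. These intervals are exact Poisson ones, overlap, and cover counting error only.

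**Figure D1:**
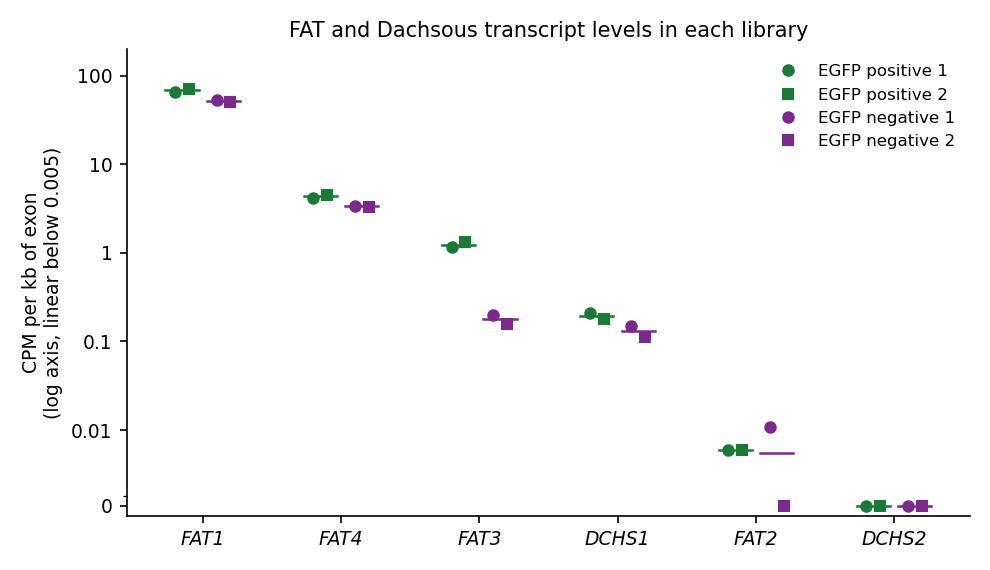
Level of each gene in CPM per kb of exon (log axis, linear below 0.005) in the 4 libraries. Points are libraries and short lines the means of 2. The 4 upper genes keep their order in every library, FAT3 drops from 1.24 to 0.178 on average between the groups, and DCHS2 lies at 0.

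FAT1, the receptor whose tail recruits actin regulators, lies on chromosome 4 (GRCh38, 186587794 to 186723856, minus strand) with 15 kb of exon sequence. It had 11481 and 12271 counts in EGFP positive libraries 1 and 2 and 9912 and 8917 in EGFP negative libraries 1 and 2, or 991, 1060, 794 and 762 CPM. Both EGFP negative libraries lay below both EGFP positive ones. The means were 1030 ± 50.6 and 778 ± 22.6 CPM (SD, n = 2), a level 24.2% lower in EGFP negative cells (log2 fold change -0.40 ± 0.07, SE).

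FAT4, the receptor paired with DCHS1, lies on the same chromosome (125314918 to 125492932, plus strand) and has 17.3 kb of exon sequence, of which 1 block alone holds 5187 bases. Its counts were 846 and 910 in EGFP positive and 740 and 666 in EGFP negative libraries, or 73, 78.8, 59.3 and 56.9 CPM. The groups again did not overlap, with means of 75.9 ± 4.09 and 58.1 ± 1.67 CPM (SD, n = 2), 23.4% lower in EGFP negative cells (log2 fold change -0.38 ± 0.10, SE). FAT1 and FAT4 were lower by almost the same factor, so that the ratio of their levels per kb stayed between 15.5 and 15.7 in all 4 libraries. From summed counts scaled by library totals, EGFP negative over EGFP positive was 0.754 for FAT1 (95% exact binomial interval 0.74 to 0.768). For FAT4 it was 0.761 (0.709 to 0.817). The range of 15.5 to 15.7 is narrower than the counting error of FAT4, so it does not measure how closely the 2 genes match.

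FAT3, a receptor best known from neurons of the retina, spans 672 kb of chromosome 11 (92224818 to 92896473, plus strand) and has the most exon sequence of the family, 19.5 kb. It had 261 and 297 counts in EGFP positive libraries and 48 and 36 in EGFP negative ones, or 22.5, 25.7, 3.85 and 3.08 CPM. The lowest EGFP positive library was several times above the highest EGFP negative one. The means were 24.1 ± 2.26 and 3.46 ± 0.544 CPM (SD, n = 2), 6.93-fold lower in EGFP negative cells (log2 fold change -2.79 ± 0.19, SE). From the summed counts, 558 against 84, each scaled by its group's library totals, the ratio was 6.99. Its 95% exact binomial interval, 5.55 to 8.9, covers counting error only. The share of FAT3 in the family's level per kb was 1.61 and 1.71% in EGFP positive and 0.347 and 0.29% in EGFP negative libraries. FAT4 was 3.45 to 3.65 times the level per kb of FAT3 in EGFP positive cells and 17.4 to 20.8 times in EGFP negative cells.

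DCHS1, the ligand of FAT4, lies on chromosome 11 (6621330 to 6655809, minus strand) and had few counts. Its counts were 26 and 22 in EGFP positive and 20 and 14 in EGFP negative libraries, or 2.24, 1.91, 1.6 and 1.2 CPM. The libraries of the groups did not overlap, but the 95% exact Poisson interval of each library's count, 17 to 38.1 in the highest and 7.65 to 23.5 in the lowest, overlapped those of the others. The log2 fold change was -0.56 ± 0.38 (SE). The ratio of EGFP negative to EGFP positive counts, scaled by the groups' library totals, was 0.674. Its 95% exact binomial interval was 0.421 to 1.07. Relative to DCHS1, FAT4 was 20.1 to 29.4 times as abundant per kb.

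FAT2, a receptor known from skin and from granule cells of the cerebellum, and the second Dachsous gene DCHS2 had too few counts to enter the comparison. FAT2 (chromosome 5, 151504092 to 151591331) had 1 and 1 counts in EGFP positive and 2 and 0 in EGFP negative libraries. DCHS2 (chromosome 4, 154231742 to 154491799) had 0 counts in all 4 libraries, which allows up to 3 counts, or 0.24 to 0.26 CPM, in each (one-sided 95% limit for a count of 0). Exons of DCHS1, DCHS2 and FAT2 overlap antisense genes, which matters because the counting used no strand option. Those overlapping genes had 0 to 2 counts in any library. The largest overlap took 8.405% of the exon bases of DCHS2, 7.654% of DCHS1 and 4.052% of FAT2. Reads on shared bases can be left uncounted for both genes, so the low counts do not show that none were lost. No exon of FAT1, FAT3 or FAT4 shared a base with another gene.

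All 4 measurable genes were lower on average in EGFP negative cells, and 3 of the 4 (FAT1, FAT3 and FAT4) had an adjusted p under 0.05 in the fit over all genes. In that fit 9.46% of 16413 genes tested were called lower and 9.4% higher (edgeR's quasi-likelihood test, Benjamini-Hochberg adjustment). All 4 had no overlap between the groups in the lower direction, as had 29.4% of the genes tested. Since the family was chosen with this contrast known, nothing is read from these counts. Without EGFP positive library 1 the fit called 2 of the 4 and without EGFP positive library 2 it called 1, FAT3, which was called in every fit. The log2 fold change of FAT1 was -0.45 and -0.35 in these fits and that of FAT4 -0.44 and -0.33. Summed over the family, the level was 1130 ± 56.7 CPM in EGFP positive and 841 ± 25.3 CPM in EGFP negative cells (SD, n = 2).

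Very long transcripts moved in both directions. The 918 tested genes with over 10 kb of exon sequence outside the family had a median log2 fold change of 0.01, and 107 were called higher and 123 lower (25.1% called). Cut into 10 equal groups by exon length, the share called was 7.23% in the shortest genes and 25.4% in the longest, against 18.9% over all genes. The median log2 fold change of each group lay between -0.02 and 0.02. With a length trend removed from each library, the log2 fold changes of the family were -0.39 for FAT1, -2.79 for FAT3, -0.38 for FAT4 and -0.55 for DCHS1.

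**Figure D2:**
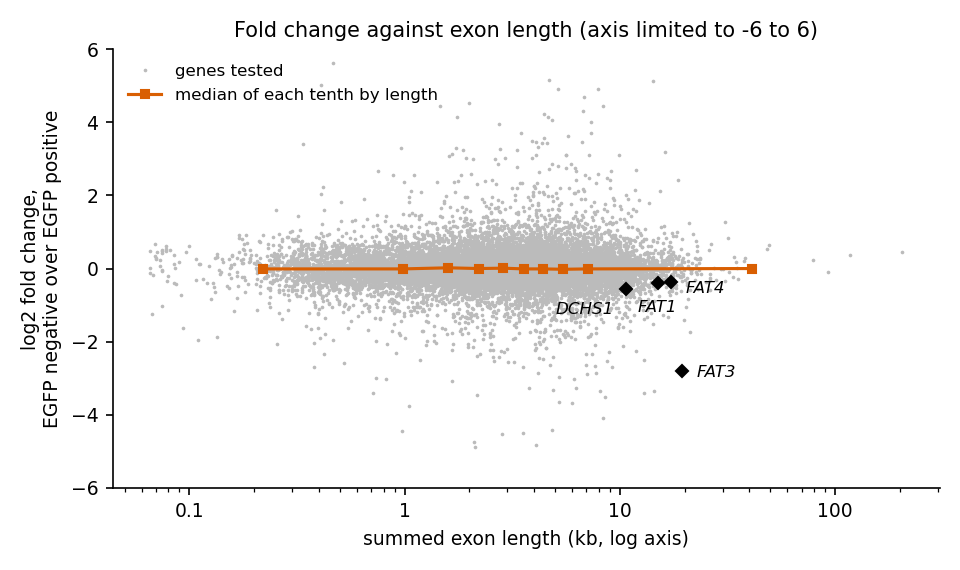
Log2 fold change, EGFP negative over EGFP positive, against summed exon length (log axis) for 16413 tested genes, with the axis limited to -6 to 6. Diamonds are the family and squares the medians of 10 equal groups by length, which lie between -0.02 and 0.02 while the family lies below them.

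The remaining genes of the pathway were looked at by role, in 5 lists chosen with earlier results of these data known. Of the modifiers and effectors, 6 of 8 could be tested, with 1 called higher and 1 lower (33.3% called, against 18.9% of all genes). Their median log2 fold change was 0.09 (median of all genes tested, 0). FJX1, the human counterpart of the fly kinase Four-jointed, which phosphorylates the cadherin repeats of Fat and Dachsous, had 1131 and 1044 counts in EGFP positive and 940 and 644 in EGFP negative libraries. It fell from 94 ± 5.1 to 65.2 ± 14.3 CPM (SD, n = 2; log2 fold change -0.53 ± 0.13, SE, edgeR adjusted p = 0.009). The nuclear corepressor ATN1, one of the atrophins that bind Fat, rose from 148 to 188 CPM (edgeR adjusted p = 0.022), a call that was lost without EGFP positive library 1 (0.17) or library 2 (0.19). LIX1 was at 0 counts in every library and FBXL7 had 2 counts in all.

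Planar cell polarity genes, which orient cells through a separate set of membrane proteins, had 4 higher and 1 lower of 19 tested. That was 26.3% called, against 18.9% of all genes, with a median log2 fold change of 0.16. CELSR1, itself a large cadherin of that system, went the opposite way to the FAT genes. It had 398 and 411 counts in EGFP positive and 1038 and 766 in EGFP negative libraries, a rise from 35 ± 0.874 to 74.3 ± 12.5 CPM (SD, n = 2; log2 fold change 1.09 ± 0.12, SE, edgeR adjusted p = 2.6e-05). Its paralogs CELSR2 (20.5 and 21.3 CPM) and CELSR3 (14.7 and 16.5 CPM) did not pass. The cytoplasmic polarity gene PRICKLE2 rose from 12.1 to 21.4 CPM and the membrane protein gene VANGL1 from 78.6 to 101 CPM, while the pseudokinase receptor gene PTK7 fell from 271 to 193 CPM. DVL1, the remaining gene to rise, had an edgeR adjusted p = 0.049 and lost its call with RLE size factors (0.05), by DESeq2 (0.067), limma-voom (0.057), with no filter (0.091) and without EGFP negative library 1 (0.21). Leaving out EGFP positive library 1 or library 2 left 2 higher and 1 lower, with VANGL1 (0.17 and 0.21) and DVL1 no longer called.

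The list of proteins reported to bind the FAT1 tail had 2 higher and 3 lower of 8 (62.5% called, against 18.9% of all genes). The median log2 fold change of the list was -0.20. ENAH, VASP and EVL encode the Ena/VASP family, which promotes growth of actin filaments, and these split. EVL fell from 14 ± 1.44 to 5.57 ± 0.506 CPM (SD, n = 2; log2 fold change -1.32 ± 0.19, SE, edgeR adjusted p = 2.3e-04) and ENAH from 103 to 77.4 CPM, while VASP rose from 143 to 176 CPM. The scaffold gene HOMER1 fell from 22.2 to 15.8 CPM and CTNNB1, encoding beta-catenin, rose from 485 to 576 CPM. HOMER2, HOMER3 and SCRIB did not pass. VASP and CTNNB1 lost their calls in both fits that left out an EGFP positive library, as did HOMER1. Without EGFP positive library 1 EVL and ENAH remained called, and without EGFP positive library 2 EVL alone (ENAH adjusted p = 0.36). HOMER1 also lost its call by DESeq2 (0.1), with no filter on low counts (0.054) and without EGFP negative library 1 (0.052).

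Hippo pathway components, to which Fat signals in flies, had 5 higher and 10 lower of 30 tested (50% called, against 18.9% of all genes). Their median log2 fold change was -0.09. The scaffold gene WWC1, encoding KIBRA, fell from 110 ± 7.45 to 65.3 ± 3.57 CPM (SD, n = 2; edgeR adjusted p = 8.0e-05), and the kinase gene LATS2 from 80.2 ± 0.366 to 49.6 ± 2.59 CPM (SD, n = 2; edgeR adjusted p = 1.8e-04). The other LATS kinase gene, LATS1, did not pass (36.6 and 34.7 CPM, log2 fold change -0.08). WWTR1, encoding the effector TAZ, rose from 98.2 ± 0.468 to 180 ± 10.1 CPM (SD, n = 2; log2 fold change 0.87 ± 0.09, SE, edgeR adjusted p = 8.0e-06). The TEAD cofactor gene VGLL4 rose from 21.1 to 35.3 CPM. These 4 kept their call in all 12 other fits. Leaving out EGFP positive library 1 or library 2 left 2 higher and 5 lower.

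Of 20 other unclustered protocadherins and atypical cadherins only 7 passed the filter on low counts, 3 of them called higher and 1 lower. That was 57.1% called, against 18.9% of all genes, with a median log2 fold change of 0.30. The protocadherin gene PCDH7 fell from 25.6 ± 1.53 to 14.8 ± 1.96 CPM (SD, n = 2; edgeR adjusted p = 0.0016). PCDH9 rose from 3.29 to 7.96 CPM, PCDH18 from 0.994 to 3.42 CPM and CLSTN1 from 280 to 362 CPM. Leaving out EGFP positive library 1 or library 2 left 1 higher and 1 lower. PCDH9 had an adjusted p = 0.06 without library 1 and PCDH18 0.056 without library 2, and CLSTN1 lost its call in both (0.11 and 0.13). CDH23 and PCDH15, the cadherins of the inner ear, did not pass the filter.

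**Figure D3:**
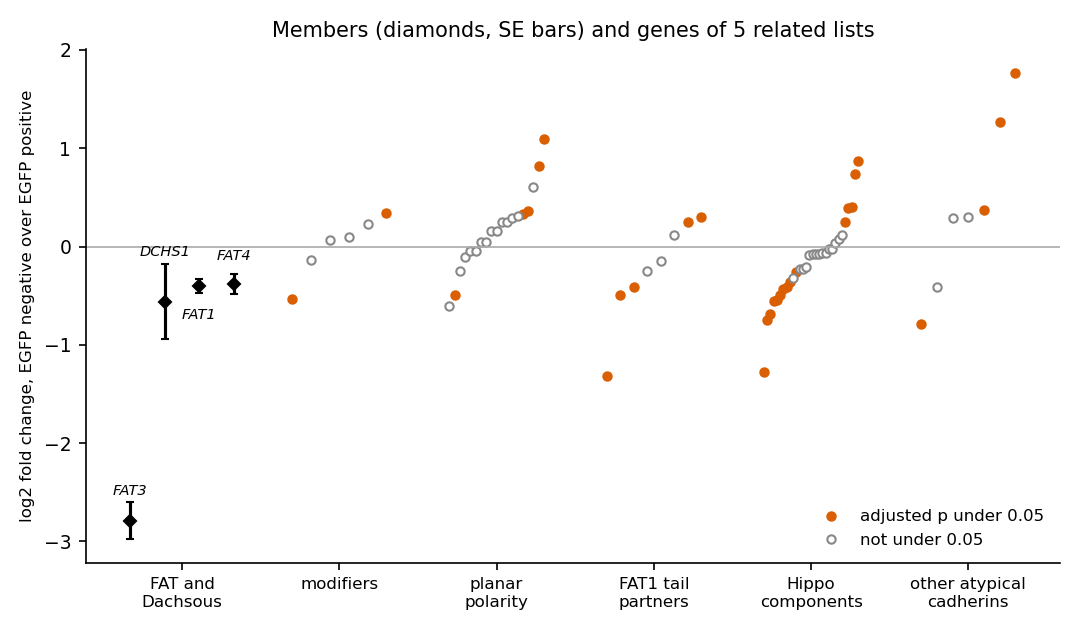
Log2 fold change, EGFP negative over EGFP positive, of the 4 measurable FAT and Dachsous genes (diamonds, bars are SE) and of the tested genes of 5 lists. Filled points have an edgeR adjusted p under 0.05. The 4 diamonds lie below 0, while every list has filled points on both sides.

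By position, 3 of the 6 genes lie on chromosome 4 and 2 on chromosome 11. Of the other genes tested within 2 Mb of any of the 6, 17 were called higher and 12 lower of 121. That was 24% called, against 18.9% of all genes, with a median log2 fold change of 0. Around FAT1 3 of 19 tested genes were called, all of them higher (15.8% called, below the share of all genes). PDLIM3, encoding a muscle LIM protein, rose from 12.4 to 17.9 CPM and the innate immune receptor gene TLR3 from 4.02 to 6.82 CPM. Both lost their call by DESeq2 (0.095 and 0.16) and without EGFP positive library 1 (0.11 and 0.23) or library 2 (0.25 and 0.16). Around FAT3 there were 3 lower and 1 higher of 21 (19% called). The amino acid transporter gene SLC36A4 fell from 58.4 to 42.3 CPM and the channel gene PANX1 from 45 to 32.3 CPM. SLC36A4 was not called without EGFP positive library 2 (0.12), nor PANX1 without library 1 (0.074) or library 2 (0.079). The log2 fold changes of these 2 genes were -0.46 and -0.48, against -2.79 for FAT3. The remaining lower call was the small nucleolar RNA gene SNORA25, with 12 and 13 counts in EGFP positive and 3 and 4 in EGFP negative libraries. Its log2 fold change was -1.86 (edgeR adjusted p = 0.042). Of the 21 genes tested around FAT3, 16 had a log2 fold change below 0, and their median was -0.19. Near FAT4 the signalling antagonist gene SPRY1 was the single call among 4 tested genes and rose from 43.5 to 66.2 CPM. Around DCHS1 there were 4 higher and 5 lower of 29 (31% called). The lysosomal peptidase gene TPP1, whose end lies 1.9 kb from DCHS1, rose from 35.1 to 63.3 CPM. The caveolar coat gene CAVIN3 rose from 65.3 to 131 CPM.

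**Figure D4:**
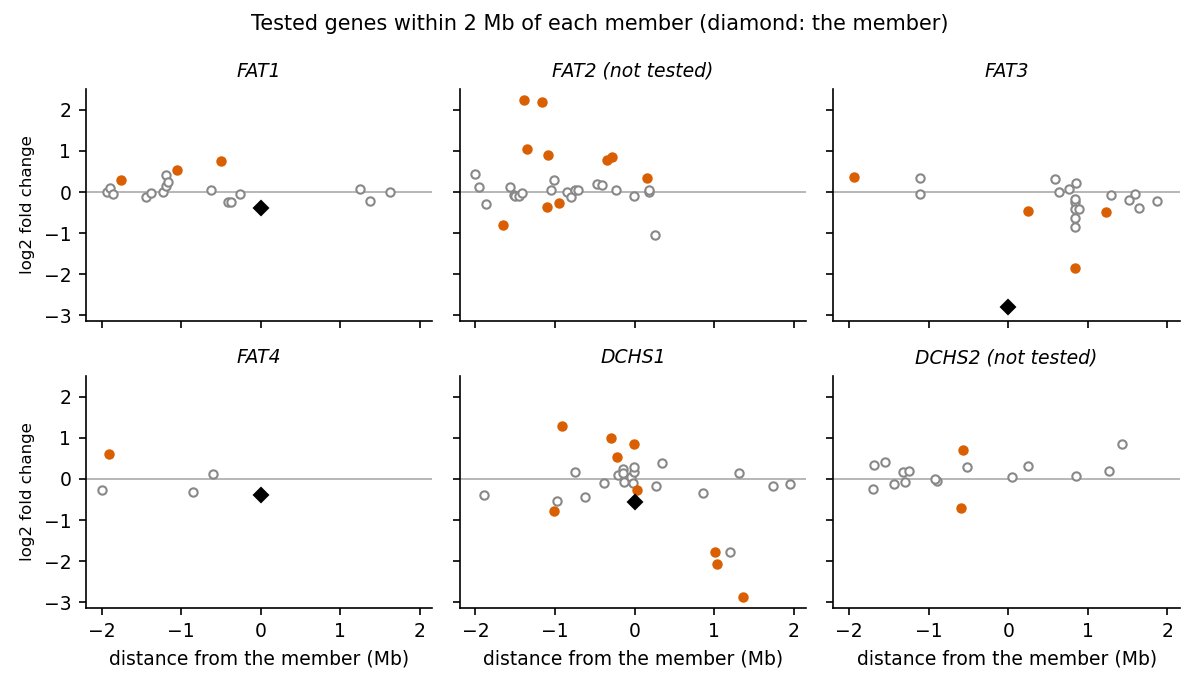
Log2 fold change, EGFP negative over EGFP positive, of tested genes within 2 Mb of each gene of the family, against distance in Mb. Filled points have an edgeR adjusted p under 0.05 and diamonds are the FAT or Dachsous gene itself. The FAT3 diamond at -2.79 lies below every point around it.

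The genes whose pattern over the 4 libraries was most like that of FAT3 were NEDD9, ADAMTS9 and RIMS1. They had the smallest Euclidean distances, 0.229, 0.384 and 0.434 log2 units, between centred log2(CPM + 0.5) values, among 2697 protein-coding genes of a mean level within 1 log2 unit. NEDD9 had 226 and 234 counts in EGFP positive and 47 and 29 in EGFP negative libraries, ADAMTS9 142 and 146 against 28 and 24, and RIMS1 168 and 135 against 26 and 23. The likeness rests on 4 libraries in 2 groups, and 1 of the 3 genes was also among the nearest 3 with a pseudocount of 2.

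Libraries held 11445076 to 12635576 counts. The line's basal and mesenchymal markers were abundant in both groups, summing to 8440 to 8490 CPM in EGFP positive and 9650 to 10100 CPM in EGFP negative cells over 6 genes, with VIM and CAV1 called higher and CD44 lower. Of 6 luminal genes, ESR1, PGR, FOXA1 and CDH1 had 3 or fewer counts in each library, while ERBB2 was at 80.9 and 96.9 CPM and GATA3 at 11.1 and 9.71 CPM on average in EGFP positive and EGFP negative cells, neither of them called. The luminal list summed to 91.9 to 92.8 and 104 to 110 CPM. Of 8 endothelial markers CDH5 was at 0, VWF, TEK and CLDN5 had 3 or fewer counts, and the list summed to 31.6 to 33.1 CPM in EGFP positive and 31.1 to 38 CPM in EGFP negative cells. Within it PECAM1 rose from 0.778 to 3.4 CPM (edgeR adjusted p = 0.0015) and TIE1 from 5.14 to 8.82 CPM (edgeR adjusted p = 0.018), while KDR, at 13.2 and 9.27 CPM, and EGFL7, at 12.9 and 12.7 CPM, did not pass. The 7 fibroblast markers summed to 23.4 to 27.6 and 18.7 to 28.7 CPM, with DCN at 0 and most of the sum from COL1A1 (22.3 and 18.1 CPM, not called). PDGFRB rose from 2.51 to 5.15 CPM (edgeR adjusted p = 0.033). The 6 leukocyte markers summed to 1.04 to 3.28 CPM in EGFP positive and 7.27 to 7.61 CPM in EGFP negative cells, with CSF1R called higher at 1.34 and 6.41 CPM on average (edgeR adjusted p = 5.8e-04), CD3E at 0 and PTPRC at 2 to 6 counts. The part of these markers in the values of the family was not tested. In bulk RNA, fewer cells with a transcript and less of it per cell cannot be told apart.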

How the data were processed

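Gene expression was measured in 4 libraries, 2 EGFP positive and 2 EGFP negative, grouped and numbered by their labels. The deposited tables hold raw counts per gene name, made by the authors with featureCounts 2.0.1 over exons of the GENCODE 46 basic annotation with paired reads and no strand option, per the file headers. The aligner is not given in the sources used here. The submitters' processing notes name GRCh37 and hg19, but 99.3% of 18739 protein-coding genes in the tables had an end within 5000 bp of its GENCODE 29 place on GRCh38, so coordinates are given as GRCh38. That says nothing of the build used for alignment.

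Genes were kept by filterByExpr (minimum count 10, minimum total 15), leaving 16413, with TMM factors of 0.987 to 1.009. Groups were compared with the two-sided quasi-likelihood test of edgeR 4.0.16 under R 4.3.3. The model held the group alone, used all 4 libraries, and was adjusted over all genes by Benjamini-Hochberg at 0.05. The SE of a log2 fold change is its size over the square root of F. A permutation of 2 against 2 libraries cannot go below p = 0.33. Replicates differed beyond sampling noise (chi-square per degree of freedom 2.13 and 6.77), so none was counted as a duplicate. On simulated counts for this comparison over 16413 genes, 53.7% of genes changed 1.5-fold, 80.6% changed 2-fold and 95.5% changed 4-fold were recovered, with 12 false calls among 165. The simulation changed 67, 67 and 66 genes by these folds, a far smaller share than the 18.9% called in the data. It gave each gene the same dispersion in both groups, so these rates need not hold for the data.

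The members and lists were chosen with earlier results of these data known. No set test was run. Named were all 6 genes, up to 4 called genes per list with the smallest adjusted p, up to 2 called protein-coding neighbours per gene and the 3 genes most like FAT3. The genes CELSR2, CELSR3, DVL1, CTNNB1, HOMER2, HOMER3, SCRIB, LIX1, FBXL7, LATS1, CDH23, PCDH15, SNORA25, EIF3F, the markers and those of the closing section lie outside that rule and were chosen after their values were seen. Alternatives were other scalings (RLE, upper quartile), other filters (none, stricter), DESeq2 1.42.0, limma-voom (limma 3.58.1), the replicate number as a block, a length trend removed, and each library left out in turn.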

Additional observations from a re-analysis of the deposited data

How the results depend on the processing

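The log2 fold changes of FAT1, FAT3, FAT4 and DCHS1 were below 0 in all 12 other fits. Leaving out 1 library gave -0.45 to -0.35 for FAT1, -2.97 to -2.64 for FAT3, -0.44 to -0.33 for FAT4 and -0.79 to -0.36 for DCHS1, which the stricter filter left untested. With 2 libraries a group, leaving out 1 moves a value by less than the spread between replicates by construction, so that these ranges are no sign of stability. The number of genes called depended on single libraries: 720 to 2477 were called higher and 715 to 2465 lower, the low ends coming without an EGFP positive library. DESeq2 called 992 lower (1040 higher). Fits without 1 library called 1 to 4 of the modifiers, 3 to 6 of the polarity genes, 1 to 5 of the FAT1 tail partners, 7 to 18 of the Hippo components, 2 to 4 of the other cadherins, 14 to 41 of the genes within 2 Mb and 119 to 321 of the long genes. Within 2 Mb DESeq2 called 18. A window of 1 Mb held 14 called genes of 62 tested, and a limit of 8 kb gave 442 called long genes of 1735. The smaller window and lower limit change the number of genes. A fit without 1 library takes its spread between replicates from the pair of the other group alone. That spread was larger in the EGFP negative pair (chi-square per degree of freedom 6.77) than in the EGFP positive pair (2.13). A call lost without an EGFP positive library therefore need not reflect the values of that library. The cause of the shifts was otherwise not tested.

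With the replicate number as a block, 2407 genes were called lower and 2297 higher, and the same 3 of the family's genes were called. The deviations of same-numbered libraries correlated at r = 0.114 across genes, and with only 2 numbers that the labels tie to nothing this does not pair the samples. Among the genes named from lists and neighbourhoods and the FAT3 likeness, 273 of 301 values kept their direction and call, 27 lost the call and 1, the likeness list with another pseudocount, moved. Levels per coding length were not run, since no protein table was used here. FAT2, DCHS2 and DCHS1 had few or no counts, which limits what can be said of them.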

Other observations

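The genes below were picked after their values were seen. Between 1009.3 and 1363.4 kb from DCHS1 on chromosome 11, 3 called genes were lower in EGFP negative cells, while EIF3F, which lies among them, did not pass (log2 fold change 0.14). CYB5R2, a cytochrome b5 reductase gene, was at 4.89 and 1.39 CPM (log2 fold change -1.79, edgeR adjusted p = 0.0018), OVCH2 at 2.46 and 0.572 CPM (-2.07, 0.0069) and TUB at 4.63 and 0.625 CPM (-2.88, 1.2e-04). Near FAT2, itself barely counted, on chromosome 5, 7 of 31 tested genes were called higher and 3 lower (32.3% called, against 18.9% of all genes). Among the higher ones were ANXA6, encoding a membrane-binding annexin (346 and 595 CPM, edgeR adjusted p = 7.1e-06), CCDC69 (85.2 and 153 CPM) and CD74, encoding the invariant chain of MHC class II (160 and 298 CPM).

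Among the cadherins that did not pass the filter, PCDH15 was counted once in each EGFP positive library, and 10 and 13 times in EGFP negative libraries 1 and 2. It was called with no filter on low counts (edgeR adjusted p = 0.019).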
